A study of Mus musculus with 6 samples.

Results

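Ribosome biogenesis genes and genes of RNA polymerase I were compared between cells given GSK-LSD1 and cells given DMSO. They were the 48 genes of a list of nucleolar processing factors and polymerase I subunits, matched by gene symbol, and all 48 were found among the 15035 genes of the table. The cells were mouse leukemia cells: BALB/c bone marrow cells in which retroviruses expressed mutant CSF3R, a receptor that drives granulocyte production, and mutant CEBPA, a myeloid transcription factor. They were kept in culture medium with serum, and both groups carried both mutant genes. The GSK-LSD1 group held 3 RNA-seq libraries from cells treated with 4 nM GSK-LSD1 for 48 h. GSK-LSD1 inhibits LSD1, an enzyme that removes methyl groups from histones and is encoded by Kdm1a. The DMSO group held 3 libraries from cells given the solvent for 48 h. The labels do not say whether libraries of 1 group came from separate cultures, so each p-value reflects the spread among these libraries, which may be technical. Both mutant genes were delivered by retrovirus and act beside the cells' own copies, and the sources used here do not say how many clones the cultures held.

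Ribosomes are assembled mainly in the nucleolus. RNA polymerase I transcribes a long precursor of ribosomal RNA, small nucleolar ribonucleoproteins (snoRNPs) guide its methylation and pseudouridylation, and large sets of helicases, GTPases, scaffold proteins and nucleases fold and cut it into the small and the large subunit. The genes for these factors are transcribed by RNA polymerase II and are known to change together with cell growth. In myeloid cells their levels are known to fall as proliferating precursors mature, and the MYC transcription factors are known to bind many of them at the E-box.

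The promoter windows below belong to the 5 members with the lowest fold changes among those that hold this E-box, and to 1 member without it that had the highest fold change of all members. They were selected by motif, so they show where the sequence lies and nothing about its relation to the fall, which was not tested. Of the 10 members with the lowest fold changes, 9 had a window, and 0 of these held the E-box. It was held by 8 of all 41 members with a window. Each is the RefSeq window of GRCm38.p6 on the strand of the gene, with 250 bases before the transcription start and 50 from the start onward, and capitals mark CACGTG.
Nop2, chr6:125131633-125131932, plus strand: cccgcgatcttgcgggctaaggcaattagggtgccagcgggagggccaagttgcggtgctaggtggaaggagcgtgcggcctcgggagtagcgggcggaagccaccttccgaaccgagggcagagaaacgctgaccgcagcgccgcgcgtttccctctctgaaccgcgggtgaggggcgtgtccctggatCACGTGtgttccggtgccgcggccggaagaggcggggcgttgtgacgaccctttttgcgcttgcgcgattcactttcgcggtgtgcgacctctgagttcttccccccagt
Ltv1, chr10:13193088-13193387, minus strand: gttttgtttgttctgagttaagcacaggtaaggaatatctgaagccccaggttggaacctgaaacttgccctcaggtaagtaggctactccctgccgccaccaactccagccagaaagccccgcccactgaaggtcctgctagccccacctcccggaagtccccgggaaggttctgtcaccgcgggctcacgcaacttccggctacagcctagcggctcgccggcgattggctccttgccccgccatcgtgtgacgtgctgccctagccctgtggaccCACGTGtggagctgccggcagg
Mybbp1a, chr11:72441077-72441376, plus strand: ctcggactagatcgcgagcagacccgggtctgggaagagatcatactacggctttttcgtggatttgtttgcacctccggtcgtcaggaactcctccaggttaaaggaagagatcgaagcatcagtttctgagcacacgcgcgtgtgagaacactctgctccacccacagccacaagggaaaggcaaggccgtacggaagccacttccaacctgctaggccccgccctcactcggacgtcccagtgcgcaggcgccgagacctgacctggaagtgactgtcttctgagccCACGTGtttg
Wdr43, chr17:71615965-71616264, plus strand: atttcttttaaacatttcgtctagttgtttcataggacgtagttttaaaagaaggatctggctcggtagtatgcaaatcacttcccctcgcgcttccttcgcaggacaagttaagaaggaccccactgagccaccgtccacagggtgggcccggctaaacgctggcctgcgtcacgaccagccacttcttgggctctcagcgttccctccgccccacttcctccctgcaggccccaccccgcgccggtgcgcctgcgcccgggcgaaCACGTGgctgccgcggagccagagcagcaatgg
Tsr1, chr11:74897830-74898129, plus strand: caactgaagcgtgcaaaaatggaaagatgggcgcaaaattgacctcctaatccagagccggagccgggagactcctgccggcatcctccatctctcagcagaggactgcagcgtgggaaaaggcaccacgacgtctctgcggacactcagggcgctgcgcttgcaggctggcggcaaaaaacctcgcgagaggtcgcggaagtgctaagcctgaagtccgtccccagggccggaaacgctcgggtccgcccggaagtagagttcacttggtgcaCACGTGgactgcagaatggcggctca
Polr1e, chr4:45018359-45018658, plus strand: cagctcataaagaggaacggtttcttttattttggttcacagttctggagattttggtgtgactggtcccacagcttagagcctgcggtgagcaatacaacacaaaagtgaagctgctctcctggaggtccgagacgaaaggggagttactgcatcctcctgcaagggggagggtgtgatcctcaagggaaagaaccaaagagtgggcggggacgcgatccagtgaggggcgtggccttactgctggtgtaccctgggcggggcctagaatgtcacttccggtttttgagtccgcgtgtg

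The E-box began 60 bases before the start in Nop2. It lay past the start in Ltv1, Mybbp1a, Wdr43 and Tsr1, at bases 29, 41, 18 and 25 when the start is counted as base 1. These are RefSeq starts, and the positions depend on the annotation. By GENCODE M21, Wdr43 began at base 71615895 of chromosome 17, before its printed window.

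After 48 h of GSK-LSD1, transcripts of the 48 listed ribosome biogenesis and polymerase I genes were lower almost throughout, by modest amounts. In total 44 of 48 members were lower with GSK-LSD1 and 0 were higher by limma, with a threshold of 0.05 on p-values adjusted by Benjamini-Hochberg over the 11588 tested genes. Of all genes tested, 20.5% were lower and 20.6% higher. Lists of further factors that exclude the members, given below, had 74 of 115 genes lower and 3 higher. The median log2 fold change of the members was -0.28, against -0.01 for all genes tested, and the middle part of the members lay between the quartiles -0.32 and -0.22. Without the mean-variance trend in the test 36 members were lower. Over all 11588 tested genes, 1662 were then lower, against 2373 with the trend. The member calls that ended were those of Nop58, Ubtf, Ncl, Npm1, Utp20, Ddx10, Ltv1 and Ebna1bp2, with adjusted p-values of 0.0548 to 0.148. The strongest fall was 1.44-fold, in Nop10, and 0 members reached 2-fold. The members differed little among themselves: the SD of their log2 fold changes was 0.115, against 0.525 over all genes tested.

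Values are read counts scaled by 1 factor for each library, called normalised counts here. Fold changes are differences of log2(value + 1), GSK-LSD1 minus DMSO. A lower value can come from fewer cells of a type or from less RNA per cell, which bulk RNA cannot tell apart. The libraries held 9572640 to 10199500 reads if the smallest value of each stands for 1 read. All 48 members passed the filter on low values (10 or more in 3 or more libraries), with normalised counts between 268 and 27735. Counts of libraries in the same group differed beyond sampling noise, with a chi-square per degree of freedom of 1.57 to 1.86 within GSK-LSD1 and 2.52 to 3.51 within DMSO, against 17.7 to 20.1 between groups. The myeloid marker Mpo, the myeloperoxidase gene, averaged 8952 ± 164 in GSK-LSD1 and 7390.3 ± 377 in DMSO (SD, n = 3 each). Elane and Prtn3, of the same list of myeloid progenitor markers, were lower, with log2 fold changes of -0.92 and -0.67. The summed B cell markers were at or below 5.10 and the summed T cell markers at or below 12.7 in each library.

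**Figure D1:**
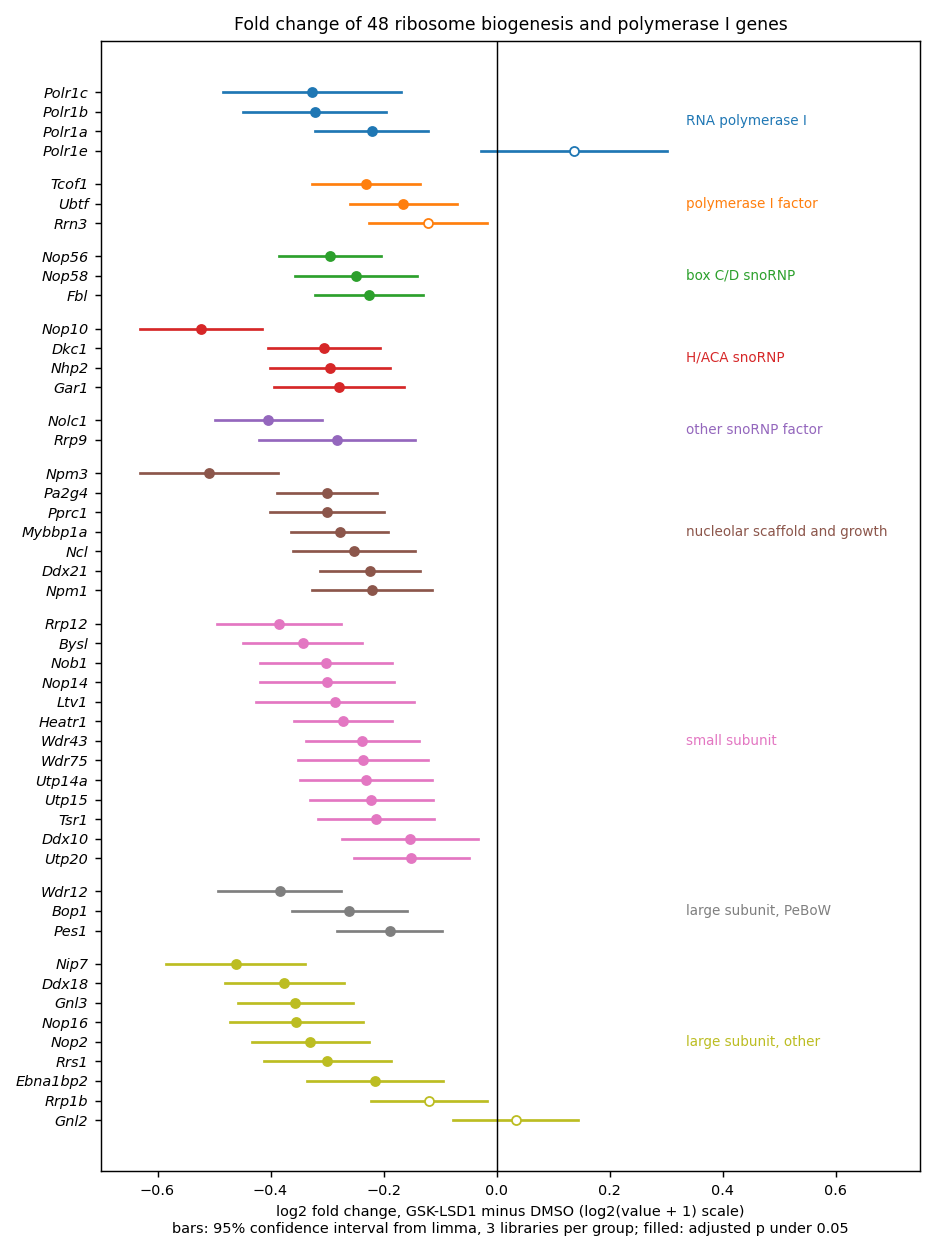
Log2 fold change (GSK-LSD1 minus DMSO, horizontal axis) of each of the 48 members, grouped by role, with the 95% confidence interval of the limma fit over 3 libraries per group; filled points passed the threshold. All filled points lie left of 0, and the 4 open points are Polr1e, Rrn3, Rrp1b and Gnl2.

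Every GSK-LSD1 library lay below every DMSO library in 45 of 48 members, against 24.8% of all genes tested, and the groups overlapped in Ltv1, Gnl2 and Polr1e. A fitted log2 fold change below 0 was found in 46 of 48 members, against 51.2% of all genes tested. Of the called members, 13 were lower by at least 1.25-fold on the fitted scale, as were 7.39% of all genes tested. Summed over the 48 members, the share of all normalised counts was 1.18%, 1.21% and 1.20% in the GSK-LSD1 libraries, against 1.37%, 1.40% and 1.48% in the DMSO libraries. The mean share was thus 1.19% ± 0.0174 in GSK-LSD1 and 1.42% ± 0.0558 in DMSO (SD, n = 3 each), with no overlap. Ncl and Npm1 together made up 34.0% of the member sum in GSK-LSD1 and 33.5% in DMSO.

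Of the 7 members of RNA polymerase I and its factors, 5 fell and 0 rose past the threshold. Among the other polymerase I genes, given below, 4 of 10 fell and 1, Baz2a, rose. Of 4 subunits, 3 fell and 0 rose, and of 3 initiation and nucleolar transcription factors, 2 fell and 0 rose. Polr1a encodes the largest catalytic subunit (chr6:71909053-71984935, GRCm38). It had normalised counts of 1423, 1391 and 1358 in GSK-LSD1, against 1676, 1575 and 1615 in DMSO. All 3 GSK-LSD1 libraries were lower, and the log2 fold change was -0.22 (SE 0.049, adjusted p = 0.000403).

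Polr1b, the other catalytic subunit, had counts of 760.1, 651 and 666 in GSK-LSD1, against 884, 894 and 815 in DMSO. Its log2 fold change was -0.32 (SE 0.062, adjusted p = 7.28e-05), without overlap. Polr1c, which encodes a subunit shared with RNA polymerase III, had 324, 328 and 388 in GSK-LSD1, against 413, 436 and 454 in DMSO. The groups did not overlap, and its log2 fold change was -0.33 (SE 0.077, adjusted p = 0.000810). Polr1e, which encodes the subunit PAF53 found in polymerase I and not in the other polymerases, stood apart from the other subunits among the members. It had 326, 326 and 303 in GSK-LSD1, against 298, 303 and 268 in DMSO (chr4:45018583-45036565, GRCm38). The lowest GSK-LSD1 library lay within the range of the DMSO libraries. Its log2 fold change of 0.14 did not pass the threshold (SE 0.081, adjusted p = 0.178), and was 0.08 without DMSO replicate 3.

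Ubtf, the factor that binds and opens ribosomal DNA, had counts of 2081, 2092 and 2084 in GSK-LSD1, against 2339, 2441 and 2241 in DMSO. Its GSK-LSD1 libraries agreed closely, with an SD of 5.56, and its log2 fold change was -0.17 (SE 0.047, adjusted p = 0.00437). Tcof1, the gene of the nucleolar protein treacle, had 1884, 1998 and 1867 in GSK-LSD1, against 2275, 2279 and 2190.0 in DMSO. Its groups were well apart, with a log2 fold change of -0.23 (SE 0.047, adjusted p = 0.000139). Rrn3, which recruits polymerase I to the promoter, had 1108, 1072 and 1125 in GSK-LSD1, against 1212, 1190.1 and 1194 in DMSO. Its GSK-LSD1 libraries were all below the DMSO libraries, yet its log2 fold change of -0.12 did not pass the threshold (SE 0.051, adjusted p = 0.0555).

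Transcripts of the snoRNP genes among the members were lower in 9 of 9 cases, 3 of box C/D, 4 of H/ACA and 2 associated factors, with a median log2 fold change of -0.29. Box C/D snoRNPs carry the methyltransferase of ribosomal RNA. Fbl, the methyltransferase fibrillarin, had 1769, 1802 and 1778 in GSK-LSD1, against 2035, 2169 and 2056 in DMSO. The log2 fold change of Fbl was -0.23 (SE 0.047, adjusted p = 0.000179), without overlap. Nop56, a core scaffold protein of the box C/D particle, had 3102, 2995 and 3200.1 in GSK-LSD1, against 3710.0, 3802 and 3891 in DMSO. All GSK-LSD1 libraries of Nop56 were lower, with a log2 fold change of -0.29 (SE 0.044, adjusted p = 1.38e-06). Nop58, its partner in the particle, had 2780.1, 2972 and 2991 in GSK-LSD1, against 3215, 3314 and 3896 in DMSO. DMSO replicate 3 was the highest library of Nop58, whose log2 fold change of -0.25 (SE 0.053, adjusted p = 0.000252) was -0.16 without that library.

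H/ACA snoRNPs carry the pseudouridine synthase of ribosomal RNA, and the same proteins bind the telomerase RNA. Nop10, the smallest protein of the particle, had the strongest fall of all members, with 1656, 1636 and 1739 in GSK-LSD1, against 2337, 2666 and 2248 in DMSO (chr2:112261926-112263269, GRCm38). It was 1.44-fold lower with no overlap, and its log2 fold change was -0.52 (SE 0.053, adjusted p = 3.41e-10). Dkc1, the synthase dyskerin, had 2436, 2577 and 2431 in GSK-LSD1, against 2882, 3040.1 and 3288 in DMSO. The groups did not overlap, and its log2 fold change was -0.31 (SE 0.049, adjusted p = 3.53e-06). Nhp2, a core protein of the particle, had 1254, 1352 and 1279.8 in GSK-LSD1, against 1481, 1656 and 1632 in DMSO. It was lower in every GSK-LSD1 library, with a log2 fold change of -0.29 (SE 0.052, adjusted p = 2.18e-05). Gar1, the core protein that joins last, had 853, 895 and 895 in GSK-LSD1, against 1021, 1155 and 1036 in DMSO. Its log2 fold change of -0.28 (SE 0.057, adjusted p = 0.000133) was close to those of Dkc1 and Nhp2.

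Of the associated factors, Nolc1 encodes a snoRNP-binding protein of the nucleolus and Cajal bodies (chr19:46075863-46085530, GRCm38). It had 3311, 3595 and 3586 in GSK-LSD1, against 4454, 4528 and 4902 in DMSO. Nolc1 was 1.32-fold lower, with the groups far apart and a log2 fold change of -0.40 (SE 0.047, adjusted p = 7.20e-09). Rrp9, a protein of the snoRNP that directs early cleavage of the precursor, averaged 488 ± 33.1 in GSK-LSD1 and 594 ± 38.0 in DMSO (SD, n = 3 each), a log2 fold change of -0.28.

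**Figure D2:**
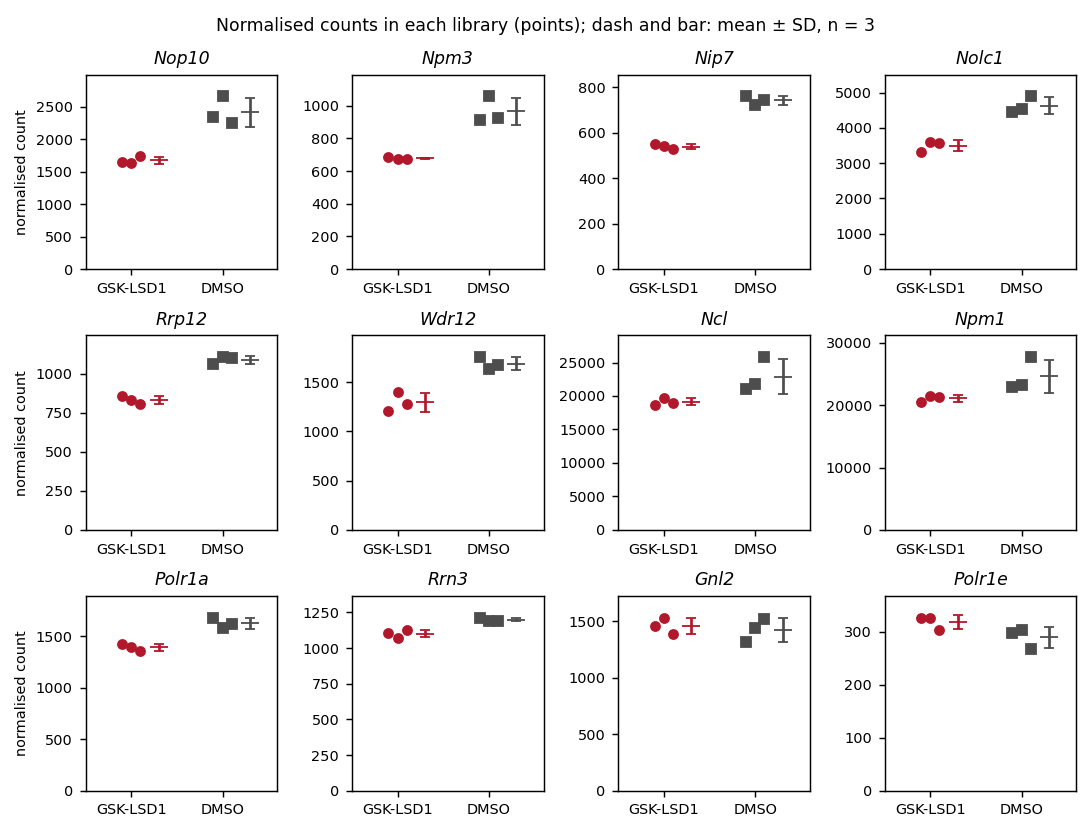
Normalised counts (vertical axis, from 0) in each library of 12 members, GSK-LSD1 left and DMSO right, with points for libraries and a dash and bar for the mean ± SD (n = 3). The groups are separate in 10 panels and overlap in Gnl2 and Polr1e.

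The nucleolar scaffold and growth genes fell in 7 of 7 cases, with a median log2 fold change of -0.28. Ncl and Npm1 had the highest counts of all members. Ncl, which encodes the nucleolar RNA-binding protein nucleolin, had 18656, 19681 and 19011 in GSK-LSD1, against 21002, 21778 and 25820.0 in DMSO. Npm1, which encodes nucleophosmin, a chaperone of the granular nucleolus, had 20496, 21513 and 21287 in GSK-LSD1, against 22962, 23309 and 27735 in DMSO. In both genes the groups were separate and DMSO replicate 3 stood above the other libraries. The log2 fold change was -0.25 for Ncl (SE 0.053, adjusted p = 0.000212) and -0.22 for Npm1 (SE 0.053, adjusted p = 0.000886). Without DMSO replicate 3 they were -0.16 and -0.13 and both stayed past the threshold, with adjusted p-values of 0.000772 and 0.00456.

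Npm3 encodes a smaller relative of nucleophosmin that binds it (chr19:45747734-45749591, GRCm38). It had 684, 676 and 673 in GSK-LSD1, against 915, 1059 and 924 in DMSO. Npm3 was 1.43-fold lower with a log2 fold change of -0.51 (SE 0.060, adjusted p = 1.16e-08). Pa2g4, which encodes a growth-regulating protein of the nucleolus, averaged 7653 ± 199 in GSK-LSD1 and 9426 ± 403 in DMSO, a log2 fold change of -0.30. Pprc1, a coactivator of the PGC-1 family, also had a log2 fold change of -0.30, Mybbp1a, a nucleolar MYB-binding protein, -0.28, and Ddx21, a nucleolar helicase, -0.22. In each of these 4 genes every GSK-LSD1 library was below every DMSO library.

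All 13 small-subunit factors were lower, with a median log2 fold change of -0.24 and a range of -0.39 to -0.15. Rrp12, a HEAT-repeat protein of the small-subunit precursor and its export, had 860.0, 834 and 809 in GSK-LSD1, against 1061, 1108 and 1101 in DMSO. It was 1.31-fold lower without overlap, at a log2 fold change of -0.39 (SE 0.054, adjusted p = 3.91e-07). Bysl, the late small-subunit factor bystin, had 1124, 1087 and 1094 in GSK-LSD1, against 1325, 1459 and 1412 in DMSO. Its groups were well apart, at a log2 fold change of -0.34 (SE 0.052, adjusted p = 1.54e-06). Nob1, the nuclease that makes the final cut of the small-subunit RNA, averaged 649 ± 13.3 in GSK-LSD1 and 801 ± 14.8 in DMSO, a log2 fold change of -0.30.

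Nop14, of the early small-subunit processome, and Ltv1, of the late cytoplasmic precursor, had log2 fold changes of -0.30 and -0.29. Ltv1 was the called member in which the groups overlapped: its counts were 624, 736 and 664 in GSK-LSD1, against 731, 831 and 911 in DMSO. Heatr1, Wdr43, Wdr75 and Utp15, which belong to the processome part that joins the precursor during transcription, had log2 fold changes of -0.27, -0.24, -0.24 and -0.22. Utp14a, a cofactor of the processome, stood at -0.23, and Tsr1, a GTPase-like protein of the late precursor, at -0.21. The smallest called changes of all members were those of the helicase gene Ddx10 at -0.15 (SE 0.059, adjusted p = 0.0357) and of the scaffold gene Utp20 at -0.15 (SE 0.050, adjusted p = 0.0143). Leaving out GSK-LSD1 replicate 1 or 3 or DMSO replicate 2 or 3 ended the call of Ddx10, with adjusted p-values of 0.230, 0.0514, 0.0619 and 0.161, and so did scaling by library total (0.0673). The call of Utp20 ended without GSK-LSD1 replicate 3 (adjusted p = 0.109), without DMSO replicate 1 (0.0566) and under quantile scaling (0.0588).

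Among the 12 large-subunit factors, 10 were lower and 0 higher, with a median log2 fold change of -0.31. The PeBoW complex, made of Pes1, Bop1 and Wdr12 and needed for large-subunit RNA processing and cell proliferation, was lower in all 3 genes. Pes1 had 2029, 2141 and 2073 in GSK-LSD1, against 2365, 2395 and 2355 in DMSO. Its DMSO libraries agreed within an SD of 20.7, and its log2 fold change was -0.19 (SE 0.046, adjusted p = 0.00102). Bop1 had 1362, 1417 and 1413 in GSK-LSD1, against 1724, 1716 and 1585 in DMSO. The groups were separate, at a log2 fold change of -0.26 (SE 0.050, adjusted p = 6.36e-05). Wdr12 had 1210.0, 1397 and 1278 in GSK-LSD1, against 1756, 1630.0 and 1678 in DMSO (chr1:60069785-60098645, GRCm38). It was 1.30-fold lower, the strongest fall of the complex, at a log2 fold change of -0.38 (SE 0.053, adjusted p = 3.15e-07).

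Nip7, a small pre-rRNA processing protein, had 549, 540.3 and 527 in GSK-LSD1, against 761, 723 and 743 in DMSO (chr8:107056877-107060931, GRCm38). It was 1.38-fold lower, with an SD of 11.3 in GSK-LSD1 and 18.7 in DMSO, at a log2 fold change of -0.46 (SE 0.060, adjusted p = 9.34e-08). Ddx18, a helicase of the large-subunit precursor, had 1218, 1149 and 1087 in GSK-LSD1, against 1493, 1486 and 1497 in DMSO. The groups were far apart, at a log2 fold change of -0.38 (SE 0.052, adjusted p = 2.82e-07). Gnl3, the GTP-binding protein nucleostemin of stem and proliferating cells, had 1549.7, 1467 and 1607 in GSK-LSD1, against 1937, 1908 and 2076 in DMSO. Its log2 fold change was -0.36 (SE 0.050, adjusted p = 3.87e-07). Nop16, a factor of the early large-subunit precursor, had 711, 711 and 787 in GSK-LSD1, against 939, 914 and 969.6 in DMSO. Every GSK-LSD1 library of Gnl3 and of Nop16 was lower than every DMSO library, and the log2 fold change of Nop16 was -0.35 (SE 0.058, adjusted p = 5.79e-06).

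Nop2, a methyltransferase of large-subunit RNA, and Rrs1, which brings in the small ribosomal RNA of the large subunit, had log2 fold changes of -0.33 and -0.30. Ebna1bp2, a nucleolar large-subunit factor, had 1234, 1263 and 1325 in GSK-LSD1, against 1362, 1406 and 1685 in DMSO. DMSO replicate 3 was again the highest library, and its log2 fold change of -0.21 (SE 0.059, adjusted p = 0.00367) became -0.12 without it (adjusted p = 0.0655). Rrp1b, a nucleolar protein of the RRP1 family, had 1505, 1428 and 1370.3 in GSK-LSD1, against 1563, 1591 and 1519 in DMSO. Its groups were separate by a narrow gap, and its log2 fold change of -0.12 did not pass the threshold (SE 0.050, adjusted p = 0.0548). Leaving out GSK-LSD1 replicate 1 or DMSO replicate 3 brought the adjusted p of Rrp1b to 0.0339 and 0.0315. Gnl2, a GTPase of large-subunit export, had 1456, 1531 and 1389 in GSK-LSD1, against 1313, 1442 and 1524 in DMSO. The ranges overlapped, and its log2 fold change was 0.03 (SE 0.055, adjusted p = 0.653).

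Pairs of members were next set side by side within each library, where the scaling factor cancels. The 7 pairs were chosen after the values were seen, and exact permutation tests over the libraries (two-sided) gave p-values of 0.1 to 0.6, where 0.1 is the smallest that 3 libraries against 3 can give. Counts of Polr1e over Polr1a were 0.229, 0.234 and 0.223 in GSK-LSD1, against 0.178, 0.193 and 0.166 in DMSO. Counts of Rrn3 over Polr1a were 0.779, 0.771 and 0.829 in GSK-LSD1, against 0.723, 0.756 and 0.739 in DMSO. Both ratios were higher in every GSK-LSD1 library. Gnl3 over Gnl2 was 1.06, 0.958 and 1.16 in GSK-LSD1, against 1.47, 1.32 and 1.36 in DMSO. Wdr12 over Pes1, within the PeBoW complex, was 0.596, 0.653 and 0.616 in GSK-LSD1, against 0.742, 0.681 and 0.713 in DMSO. These 2 ratios were lower in every GSK-LSD1 library. Nop10 over Dkc1, within the H/ACA particle, averaged 0.677 ± 0.0403 in GSK-LSD1 and 0.790 ± 0.0982 in DMSO, and Npm3 over Npm1 averaged 0.0321 ± 0.00107 in GSK-LSD1 and 0.0395 ± 0.00608 in DMSO. Nop56 over Nop58, within the box C/D particle, averaged 1.065 ± 0.0542 in GSK-LSD1 and 1.10 ± 0.0878 in DMSO (SD, n = 3 each). The groups overlapped in each of these 3 ratios, in which DMSO replicate 3 was the lowest DMSO library.

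**Figure D3:**
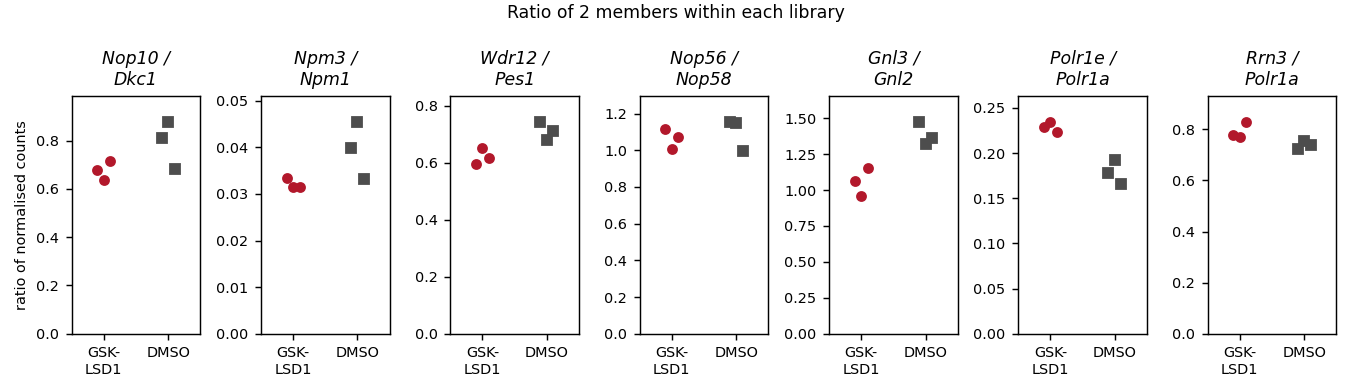
Ratio of the normalised counts of 2 members within each library (vertical axes, from 0), GSK-LSD1 left and DMSO right, 1 point per library. The groups are separate for Polr1e over Polr1a, Rrn3 over Polr1a, Gnl3 over Gnl2 and Wdr12 over Pes1, and overlap in the other 3 panels.

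The library with the most extreme value varied by member. The highest value of a member was in DMSO replicate 3 for 20 members, in DMSO replicate 2 for 18 and in DMSO replicate 1 for 8. The lowest was in GSK-LSD1 replicate 1 for 25 members, in replicate 3 for 13 and in replicate 2 for 8. The median coefficient of variation of a member was 3.28% in GSK-LSD1 and 4.38% in DMSO. Levels of different members were set side by side per length, as mean normalised counts per kb of exon. That length merges the exons of all annotated transcripts of a gene, so the order of members depends on the annotation. It was 10.19 kb for Ncl and 2.804 kb for Pa2g4, whose mean counts in DMSO were 22867 and 9426. Per kb, Npm1 was highest in DMSO at 9257, followed by Pa2g4 at 3362, Ncl at 2244, Nop10 at 2179 and Nhp2 at 1387. Polr1e was the lowest at 74.3, next to Polr1a at 137. Across the 48 genes, Spearman's rho between log2 fold change and this level was -0.21, and rho with exon length was 0.33. Genes share the same 6 libraries, so these are descriptions with no test.

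**Figure D4:**
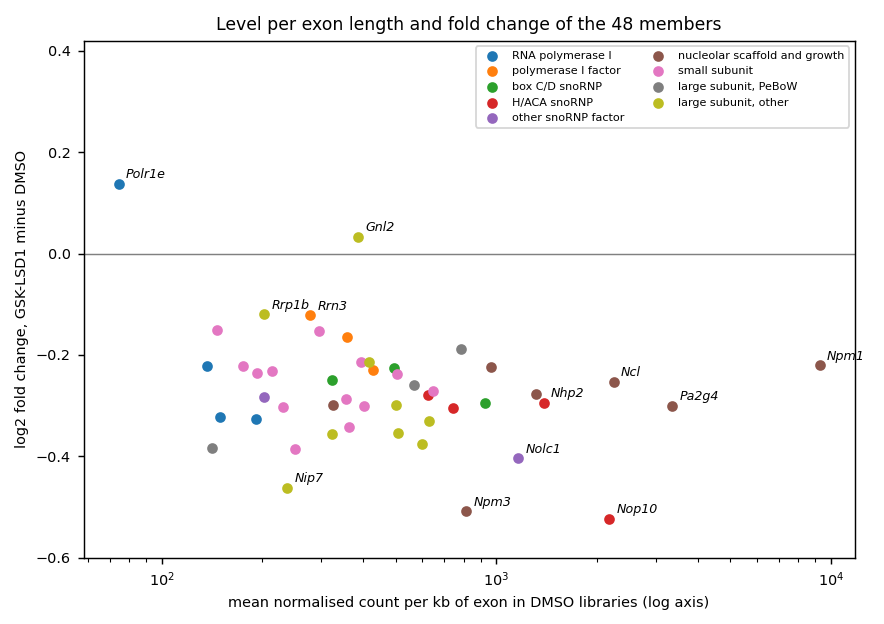
Mean normalised count per kb of exon in DMSO (horizontal log axis) against log2 fold change, GSK-LSD1 minus DMSO (vertical axis), 1 point per member, coloured by role. The exon length merges all annotated transcripts of a gene. Falls occur at all levels, from Polr1a at 137 to Npm1 at 9257, and the points above 0 are Polr1e and Gnl2.

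Some members also carry snoRNAs in their introns. By GENCODE M21, 7 of 48 members hosted 21 snoRNAs: Nop56 held 5, Nop58 4, Ncl, Wdr43 and Gnl3 3 each, Tsr1 2 and Dkc1 1. Hosts made up 14.6% of the members, against 2.05% of the 11133 tested genes matched to that annotation. All 7 host members were lower, with a median log2 fold change of -0.25, against -0.28 for members that host none. Of all 228 tested host genes, 99 were lower and 23 higher. Non-coding snoRNA host genes, a separate list, had 8 of 11 lower (5 without the trend) and 0 higher, with a median of -0.29. Snhg3 averaged 397 ± 23.0 in GSK-LSD1 and 618 ± 55.6 in DMSO, Snhg4 129 ± 9.52 in GSK-LSD1 and 192 ± 21.5 in DMSO, and Snhg7 79.7 ± 17.9 in GSK-LSD1 and 114 ± 7.78 in DMSO (SD, n = 3 each). Their log2 fold changes were -0.63, -0.57 and -0.54, and that of Snhg7 was -0.34 without GSK-LSD1 replicate 3 (adjusted p = 0.0638).

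The members lay on 19 chromosomes. Npm3, Pprc1 and Nolc1, all lower, lay within 337.8 kb of chromosome 19 (chr19:45747734-46085530, GRCm38), and Pprc1 and Nolc1 were 2.948 kb apart. Of 6 tested genes in that stretch, these 3 were lower, Mgea5 was higher with a log2 fold change of 0.28 by limma (adjusted p = 2.24e-05), and Hps6 and Ldb1 did not pass the threshold. Nop58 and Wdr12 were 350.7 kb apart on chromosome 1, and Nip7 and Nob1 351.6 kb apart on chromosome 8.

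RefSeq windows were found for 41 of 48 members, counting a gene once over all its windows. Motifs were searched on both strands. The E-box CACGTG was in the windows of 8 of 41 members, 19.5%, against 12.0% of tested genes and 8.09% of all genes with a window. Besides the 5 printed above, these were Pes1, Utp20 and Rrn3, which held 2 copies and did not pass the test. The median log2 fold change was -0.23 in the 8 members with the E-box and -0.29 in the 33 with a window but no E-box. Of members called lower, 18.4% held the E-box, against 12.7% of all tested genes called lower and 11.2% of those called higher. The ETS motif CCGGAAG was in 13 of 41 members, 31.7%, against 21.2% of tested genes, 23.8% of those called lower and 12.4% of those called higher. The window of Polr1e, printed above, held the ETS motif and no E-box. The NRF1 motif was in 0 of 41 members, against 2.47% of tested genes. Median GC content was 57.7% in member windows and 61.0% in those of tested genes. A match is a description of these letters, and no binding was measured.

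The rest of the pathway was read from lists of further factors that exclude the members. Other small-subunit factors had 29 of 45 lower and 2 higher, with a median log2 fold change of -0.18, and 17 were lower without the mean-variance trend. Emg1, Fcf1 and Imp3 fell most, with log2 fold changes of -0.39, -0.35 and -0.33, while Krr1 rose to 2184 ± 68.5 in GSK-LSD1, against 1754 ± 47.3 in DMSO. Riok2, the other gene called higher, averaged 549 ± 67.0 in GSK-LSD1 and 467 ± 16.1 in DMSO, and its call ended without GSK-LSD1 replicate 3 (adjusted p = 0.200) and without the trend (0.115). Other large-subunit factors had 33 of 50 lower and 0 higher (1, Mdn1, without DMSO replicate 1), with a median of -0.22, led by Nle1 at -0.39, Rsl24d1 at -0.38 and Ppan at -0.36. Assembly factors of snoRNPs had 8 of 10 lower (5 without GSK-LSD1 replicate 3) and 0 higher, with a median of -0.29, led by Znhit3 at -0.47, Naf1 at -0.35 and Ruvbl2 at -0.33. Other polymerase I genes had 4 of 10 lower and 1 higher, with a median of -0.11, and 2 were lower without DMSO replicate 3 or without the trend. Among them Cd3eap, whose product pairs with that of Polr1e, fell to 331 ± 14.0 in GSK-LSD1, against 417 ± 36.2 in DMSO. Baz2a, a silencer of ribosomal DNA, was higher, at 1971 ± 69.6 in GSK-LSD1 and 1597 ± 141 in DMSO. Over these 4 lists, 74 of 115 genes were lower and 3 higher, with a median of -0.19. Without the mean-variance trend 48 were lower.

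The other nuclear polymerases were counted in the same way. RNA polymerase II subunits had 7 of 13 lower (4 without GSK-LSD1 replicate 2) and 0 higher, with a median log2 fold change of -0.21, while RNA polymerase III genes had 3 of 22 lower and 0 higher, with a median of -0.04. The polymerase II list includes subunits that polymerases I and III share, so the lists are not fully distinct. Of these shared subunits, Polr2f, Polr2h and Polr2l were lower, and Polr2e and Polr2k did not pass the threshold. The call of Polr2h ended without GSK-LSD1 replicate 2 (adjusted p = 0.0594 by limma). That of Polr2l ended without GSK-LSD1 replicate 2 (0.238), without DMSO replicate 2 (0.176) and without the trend (0.162). The RNA exosome and rRNA trimming genes had 11 of 18 lower (7 without GSK-LSD1 replicate 3 and 6 without the trend) and 1 higher, with a median of -0.20, and the riser was the exonuclease gene Xrn2 at 0.36. These lists were not tested against each other or against the members.

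**Figure D5:**
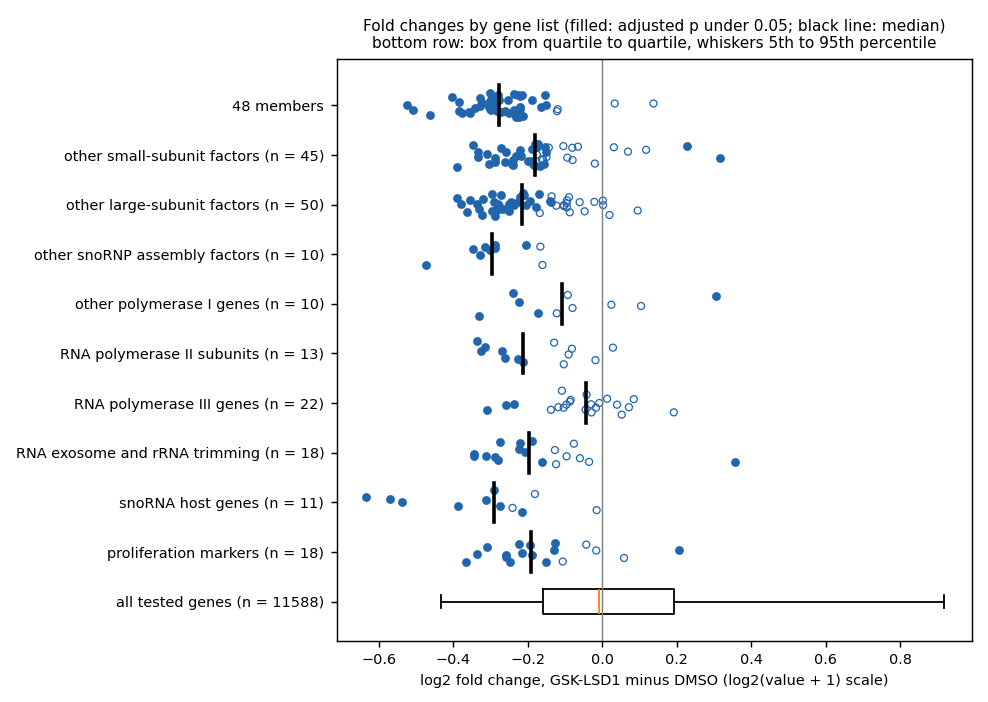
Log2 fold change, GSK-LSD1 minus DMSO (horizontal axis), of each gene of the members and of 9 other lists, with filled points past the threshold and a black line at the median; the box shows quartiles and the whiskers the 5th to 95th percentile of all 11588 tested genes. The medians are -0.28 for the members and -0.04 for RNA polymerase III genes.

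Other measurements moved with the fall of the members. Of the MYC and MAX network, 5 of 10 genes were lower and 2 higher. Only 1 was higher without GSK-LSD1 replicate 3, without DMSO replicate 2 or without the trend, where the call of Mga ended. Mycn was 622, 584 and 604 in GSK-LSD1, against 1357, 1378 and 1248 in DMSO, 2.20-fold lower with a log2 fold change of -1.14 (SE 0.057, adjusted p = 1.53e-18). Myc was 4519, 5129.8 and 4813 in GSK-LSD1, against 5651, 5419 and 5737 in DMSO, a log2 fold change of -0.22. Mxi1 and Mxd3 of the same network were also lower, with log2 fold changes of -0.44 and -0.33. The call of Mxd3 ended without the trend (adjusted p = 0.0664). Mxd1 and Mga were the genes called higher, with log2 fold changes of 0.22 and 0.19. Proliferation markers had 13 of 18 lower and 1 higher, with a median of -0.19. The replication genes Mcm3, Pcna and Mcm2 had log2 fold changes of -0.37, -0.33 and -0.31, within the range of the members, and Mki67 was higher at 0.21, a call that ended without the trend (adjusted p = 0.0519). Summed neutrophil markers were between 21290 and 21970 in the GSK-LSD1 libraries and between 4489 and 4906 in the DMSO libraries, with 5 of 6 tested markers higher and 1, Ngp, lower. A large part of these sums was Mmp8, which averaged 15579 ± 296 in GSK-LSD1 and 2376 ± 61.2 in DMSO (SD, n = 3 each). Summed monocyte markers were between 539 and 577 in GSK-LSD1 and between 125 and 140.4 in DMSO, with 3 of 4 higher. The 3 tested erythroid markers were lower, with sums of 35.0 to 56.9 in GSK-LSD1 and 115 to 146 in DMSO, and of stroma and endothelium markers Pecam1 and Col1a1 were higher, where the call of Col1a1 ended without GSK-LSD1 replicate 2 or 3 or DMSO replicate 1 or 2, under quantile scaling and with no filter. Of 8 myeloid progenitor markers, 4 were higher and 2 lower, with sums of 19830 to 20380 in GSK-LSD1 and 16010 to 17610 in DMSO. The largest rises were those of Cd34, Ptprc and Mpo, with log2 fold changes of 2.49, 0.59 and 0.28. The 2 lower markers were Elane at -0.92 and Prtn3 at -0.67. The part of these genes and cell states in the fall of the members was not tested.

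Counting of some members carries limits. The treatment of strand is not given in the sources used here, and exons of 20 members overlap exons of a gene on the opposite strand, among them Bysl with Ccnd3, Nop56 with Idh3b, Gnl3 with Pbrm1, Wdr12 with Carf and Gnl2 with Dnali1. Reads of such pairs could not be told apart if strand was not used. In 9 members over 5% of all 50-base stretches of their transcripts also occur in transcripts of other genes. The shares were 70.4% for Fbl, 62.7% for Ddx18, 40.9% for Npm1, 37.6% for Nop56, 31.9% for Npm3 and 19.7% for Pes1, and values of these genes are less certain for that reason.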

How the data were processed

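RNA-seq values of 6 libraries, 3 per group, were grouped by the libraries' titles. The deposited file holds a normalised signal for each gene symbol in each library. The values themselves show read counts that the authors divided by 1 scaling factor per library: 100% of a library's values are multiples of its smallest one, within 0.01. Per the submitters' processing notes, the tools included STAR and DESeq2 and the builds were mm10 and GRCm38, with no version, role or order stated. How reads were assigned to genes, with which annotation and whether by strand, was not given in the sources used here. Of the 15035 rows, 22 carried symbols that look like dates, and 0 value columns belonged to no labelled sample.

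Genes with a value of 10 or more in 3 or more libraries were tested, which kept 11588 and dropped 3447. Values were tested as log2(value + 1) with limma 3.58.1 in R 4.3.3, two-sided, with a mean-variance trend and no replicate term. P-values were adjusted by Benjamini-Hochberg over all tested genes, at a threshold of 0.05. This scale understates changes of low values. The members and the other lists were chosen with earlier results of these data known, so no list was tested as a set. Values per library are given for the 10 members with the lowest fold change, the 4 with the highest, the core complexes, Ncl and Npm1, and for further genes that a sentence turns on. From other lists, up to 3 genes per direction are named, with the largest change among those past the threshold, and Myc was added after its values were seen. Gene models came from GENCODE M21 on GRCm38, and all 48 members matched by symbol. Promoters came from RefSeq, GRCm38.p6. Alternatives were another pseudocount, other filters and scalings, no trend, a replicate block and leaving out each library.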

Additional observations from a re-analysis of the deposited data

How the results depend on the processing

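In 13 alternatives, all 44 members called lower kept a fold change below 0, 38 of 48 members kept their direction and side of the threshold, and 0 members were higher. The members called lower numbered 36 without the mean-variance trend, 43 under scaling by library total or quantile scaling, 44 with other filters or a pseudocount of 5, and 42 to 44 when a library was left out. Of all tested genes, 1662 were lower without the trend, against 2373 with it. The genes of other ribosome biogenesis lists called lower numbered 48 without the trend, against 74, and 62 to 73 when a library was left out. The members' median log2 fold change was -0.26 under scaling by library total and -0.25 under quantile scaling, which put the median of all tested genes at 0.01 and -0.05. It ranged from -0.30 to -0.25 when a library was left out. Of all called genes, 50.2% were higher, against 55.1% under scaling by library total and 44.4% under quantile scaling. Gnl2, which was not called, had log2 fold changes from -0.0245 (without DMSO replicate 1) to 0.0827 (without DMSO replicate 3) when a library was left out, and -0.00184 without GSK-LSD1 replicate 2. The causes of these changes were not tested.

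With the replicate number as a block, 44 members were lower and 0 higher, and over all genes 2316 were lower and 2345 higher; the block changed no member's call. Same-numbered libraries did not deviate together (Pearson's r across genes -0.0241, -0.0276 and -0.00771). The labels do not say whether same-numbered libraries were handled as pairs, and these correlations cannot settle it. The planned edgeR and DESeq2 tests were not run, because the smallest values of DMSO replicates 2 and 3, 0.991 and 0.995, were too close to 1 for the criterion on recovered reads.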
